A study of Mus musculus with 20 samples.

Results

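Mitochondrial ribosomal protein genes were taken as all genes whose platform symbol begins with Mrpl or Mrps followed by a number. They came to 76 of the 18193 genes with a probe set of their own, measured by 156 probe sets. By name, 47 belonged to the large subunit (Mrpl) and 29 to the small subunit (Mrps). No expression value entered this choice. The levels came from 20 Affymetrix arrays, 2 for each of 10 cell types sorted by flow cytometry from wild-type female C57Bl/6 mice aged 12 to 14 weeks. Stem cells were represented by the long-term type (LT-HSC), and lymphocytes by B cells, natural killer cells (NK) and CD4 and CD8 T cells, each of the last both naive and activated. Monocytes, granulocytes and nucleated erythrocytes, which are red cell precursors that still hold a nucleus, made up the rest. The labels give lipopolysaccharide (LPS) as the treatment of both activated T cell groups and no treatment for the others. Each array held 4 pooled samples, and RNA from 25000 to 50000 cells was amplified by in vitro transcription before labelling. The 2 arrays of a type are called biological replicates, so a p-value measures the spread between pools and not between single mice.

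The mitochondrial ribosome translates the few proteins that mitochondrial DNA encodes, which are core subunits of the respiratory chain and of ATP synthase. Its ribosomal RNAs are transcribed in the mitochondrion, whereas every one of its proteins is encoded in the nucleus, made in the cytosol and imported. Some of these proteins descend from bacterial ribosomal proteins, and others have no bacterial counterpart. Lymphocytes that leave the resting state are known to build up mitochondrial mass and respiratory capacity.

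Values are log2 GCRMA levels, so a difference of 1 is 2-fold. A gene was represented by its probe set with the highest mean and was tested where at least 2 arrays lay above a log2 level of 5, which 9810 genes did. Of the members, 74 were tested and 43 lay above that level in all 20 arrays. Mrpl55 passed only through the 2 activated CD8 arrays, so its difference from other types is partly set by the filter. Mrpl14 and Mrpl45 were not tested. Mrpl14 lay between 1.26 and 2.1 and Mrpl45 between 2.91 and 3.53 in all arrays. A difference was called where limma's Benjamini-Hochberg adjusted p was under 0.05 and its size was at least 2-fold. Errors after ± are standard errors (SE) of fitted differences, and every cell type has n = 2 arrays. Levels of different genes come from different probes and were not set against each other.

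Markers placed most arrays with their labels. T cell markers (3 of 3 on the array) averaged 8.41 to 10.26 in the T cell arrays and at most 3.64 elsewhere, and the CD8 pair averaged 11.11 to 12.92 in CD8 T cells and at most 4.9 elsewhere. The probe set used for Cd4 lay between 3.32 and 4.35 in all arrays and could not check the CD4 label. That for Hba-a1 did not exceed 2.72 even in nucleated erythrocytes. The erythroid marker Alas2 read 14.98 and 15.02 in nucleated erythrocytes but also 11.49 and 10.02 in granulocytes, where Klf1 read 5.32 and 1.91. One naive CD8 array has a title that reads CD48+ and was placed by its source name. Y-linked genes (3 of 4 on the array) averaged 7.52 to 9.35 in 6 T cell arrays, the 4 activated ones and the naive ones numbered 1, and at most 3.42 in the other 14, although the labels call the mice female. Granulocyte markers (4 of 4) averaged 14.95 to 15.23 in granulocytes, 10.3 to 12.0 in nucleated erythrocytes and 7.92 to 8.89 in monocytes. Ltf, Ngp and Mmp8 lay above 5 in every array of these types. Monocyte markers (3 of 3) averaged 10.87 to 11.17 in monocytes, 6.22 to 7.36 in naive and 2.22 to 3.94 in activated T cells. Csf1r and Ly86 set this difference, as Cd14 lay between 1.63 and 1.68 in all T cell arrays. Of the B cell markers, Ms4a1 read 7.16 to 8.58 in naive and 4.34 to 6.76 in activated T cells, and Cd79a 2.51 to 2.68. The part of this signal in the activation result was not tested.

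The members were highest in activated T cells and lowest in monocytes. The median level of the 74 members reached 10.26 to 10.61 in activated T cells, and was 8.37 and 8.73 in naive CD4 T cells, and 9.07 and 9.28 in naive CD8 T cells. It was 8.84 and 8.64 in B cells, 8.12 and 8.21 in NK cells, and 7.88 and 7.46 in LT-HSC. In the remaining types it was 7.49 and 7.41 in granulocytes, 8.04 and 7.06 in nucleated erythrocytes, and 5.92 and 6.51 in monocytes. The activated arrays stood clear of all others, and the arrays of granulocytes and erythrocytes overlapped each other. Over all 9810 genes tested the median spanned only 7.07 to 8.34. In sorted bulk samples, a lower level in each cell and fewer expressing cells cannot be told apart.

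**Figure D1:**
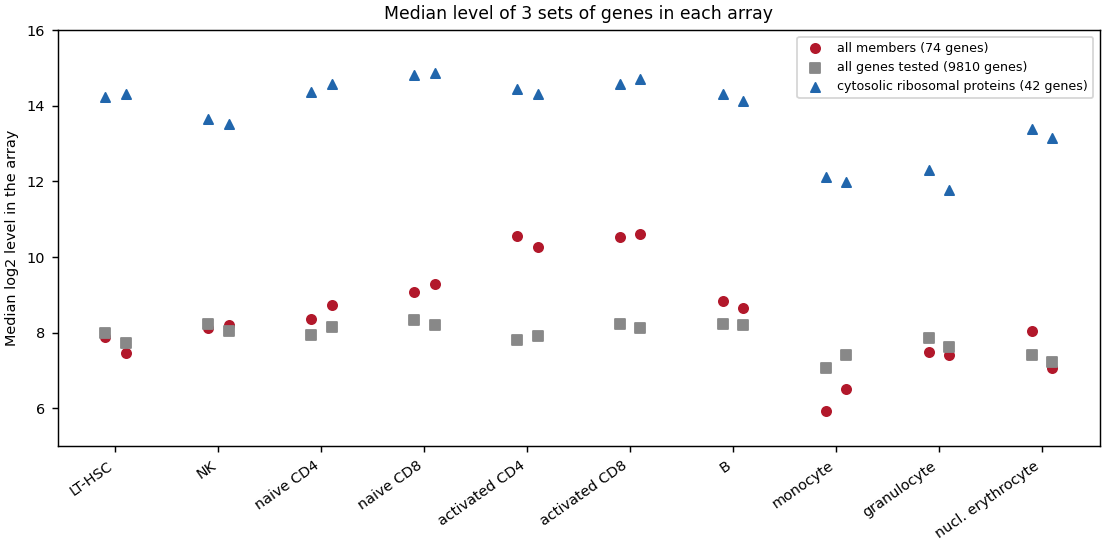
Median log2 level in each of the 20 arrays (points, 2 per cell type) for the 74 members tested, all 9810 genes tested and 42 cytosolic ribosomal protein genes. The member medians reach 10.26 to 10.61 in activated T cells and fall to 5.92 and 6.51 in monocytes, while the median of all genes stays between 7.07 and 8.34.

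One of the activated groups held the highest mean in 69 of 74 members, activated CD8 T cells in 51 and activated CD4 T cells in 18. In 64 members these groups held both of the highest means. The exceptions were Mrpl10 and Mrpl23, highest in granulocytes, Mrpl33, highest in monocytes, Mrpl24, highest in naive CD4 T cells, and Mrpl58, highest in naive CD8 T cells. All 4 activated arrays lay above all 16 other arrays in 56 members, or 75.7%, against 12% of all genes tested. They lay above the 4 naive T cell arrays in 63 members, or 85.1%, against 22.4% of genes. Monocytes held the lowest mean in 41 members, granulocytes in 12, LT-HSC and nucleated erythrocytes in 10 each, and NK cells in 1. Both monocyte arrays lay below the other 18 in 22 members, or 29.7%, against 9.2% of genes. The 6 arrays of monocytes, granulocytes and nucleated erythrocytes all lay below the other 14 in 10 members, or 13.5%, against 7.62% of genes. All 74 members differed among the 10 types by limma's F test, as did 94.3% of genes.

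**Figure D2:**
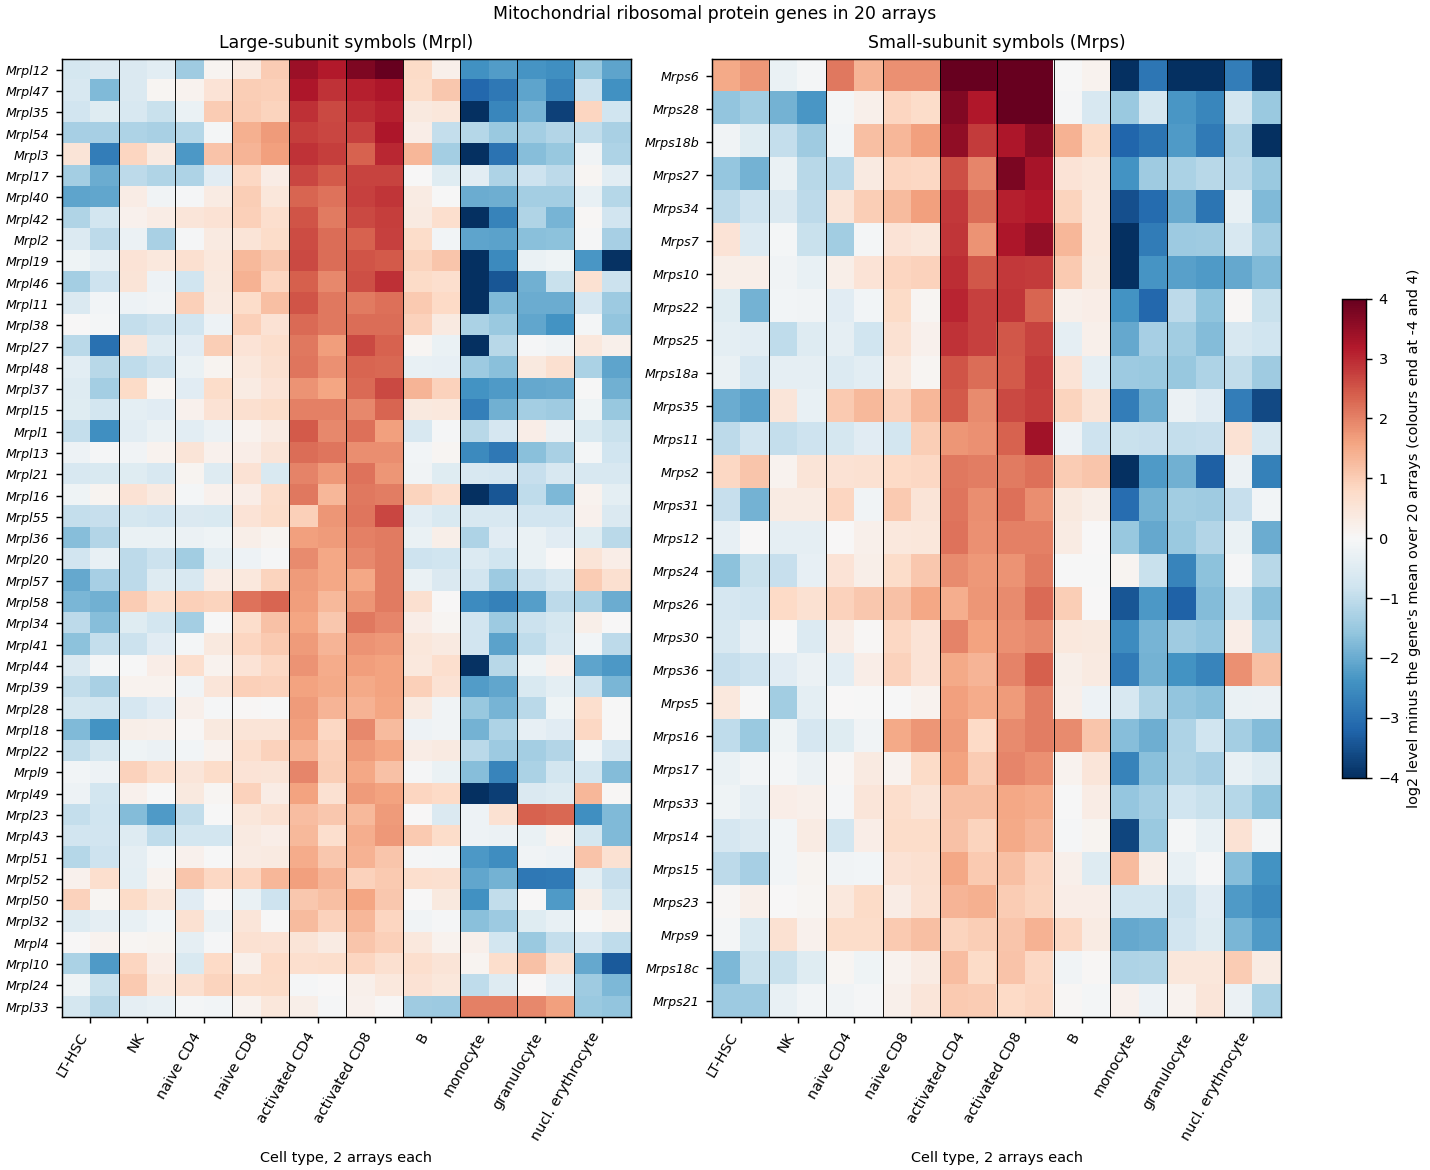
Log2 level of each of the 74 members in the 20 arrays, minus that gene's mean over all arrays, with Mrpl genes on the left and Mrps genes on the right, ordered by their level in activated T cells. Red is above and blue below the gene's own mean. The 4 activated columns are red in nearly every row, and Mrpl24 and Mrpl33 at the foot of the left panel are the plainest exceptions.

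The widest range of type means belonged to Mrps6, a small-subunit protein with a bacterial homologue, whose means spanned 9.66 on the log2 scale. Mrps6 read 12.27 to 12.68 in activated T cells and 9.6 to 10.35 in naive T cells. It read 9.74 and 9.98 in LT-HSC, and 2.85 and 2.86 in granulocytes. The other Mrps6 probe set that passed the filter spanned less, lying between 3.46 and 7.89 over all arrays, so this range rests on 1 probe set. Mrpl19, Mrpl42, Mrps7, Mrpl46 and Mrps28 followed, with ranges of 6.97, 6.93, 6.82, 6.78 and 6.74. In all of these but Mrpl42 the lowest type mean lay under 5, where readings near background limit the range, so their order is not firm. The ranges were narrowest for Mrpl4 at 2.25, Mrps18c at 2.34, Mrpl24 at 2.37 and Mrps21 at 2.5.

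**Figure D3:**
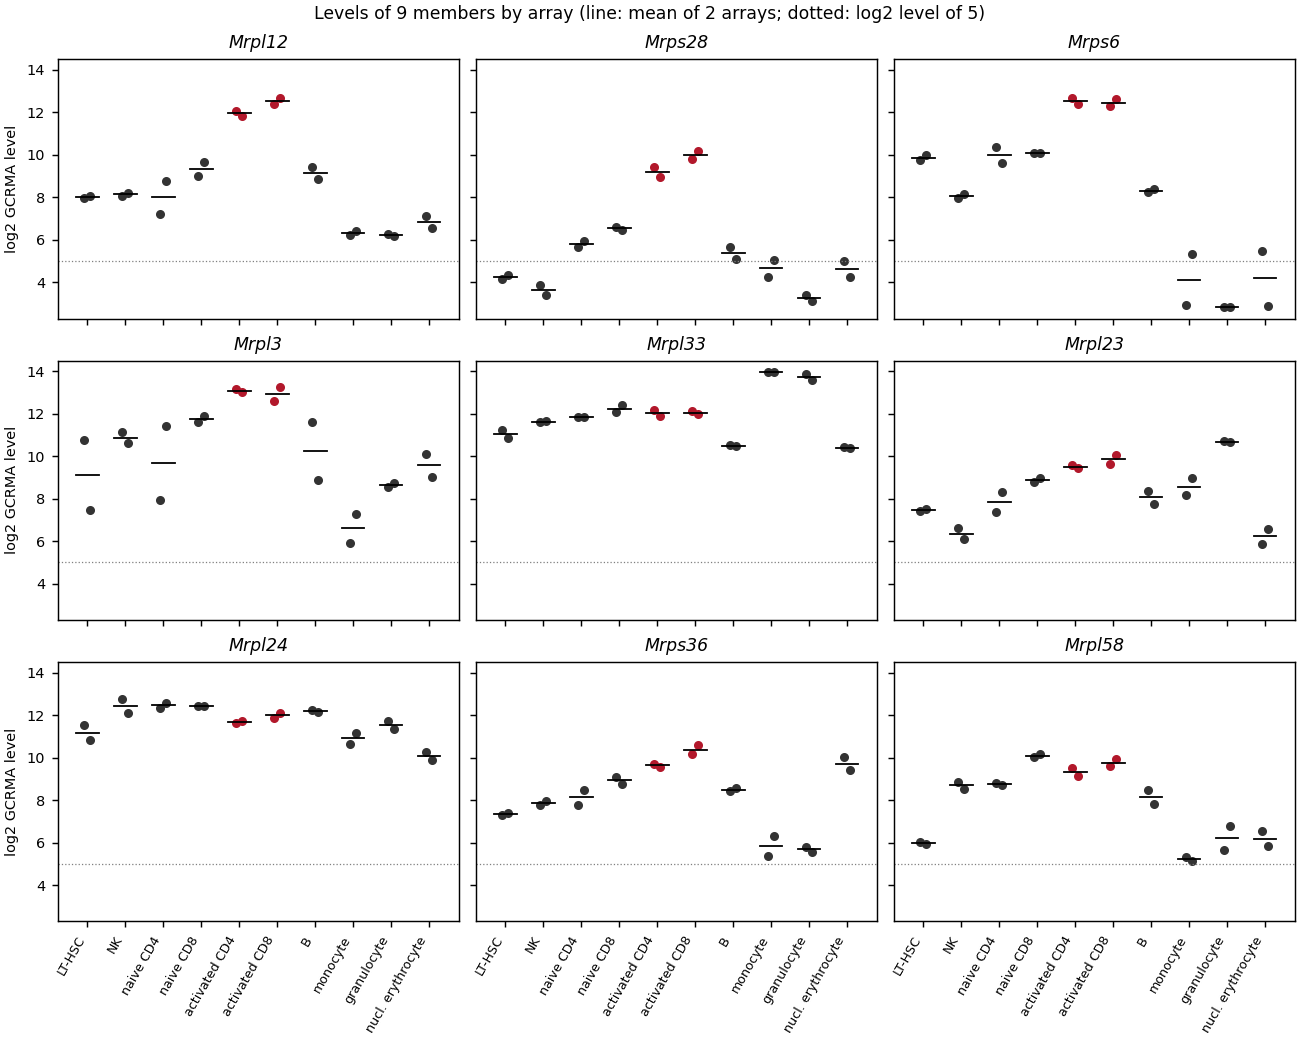
Log2 levels of 9 members in every array, by cell type. Points are arrays, red for activated T cells, horizontal lines are the mean of 2 arrays, and the dotted line marks a log2 level of 5. Mrpl12 and Mrps28 peak in activated T cells, Mrpl33 peaks in monocytes and granulocytes, Mrpl23 in granulocytes, and Mrps36 is nearly as high in nucleated erythrocytes as in activated T cells.

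Activation of CD4 T cells came with higher levels across both subunits. Of 74 members, 53 were called higher and 0 lower, whereas 14.9% of all genes were called higher and 18.2% lower. At an unadjusted p under 0.05 limma gave 60 and 1 members, against 20.6% and 24.6% of all genes. The median difference of the members was 1.65, or 3.13-fold, against 0.02 over all genes, and 73 members lay above 0. With no filter on low values, 49 of 76 members were called higher, against 7.06% of 18193 genes. The count fell to 35 without the first activated CD4 array.

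Mrpl12 changed most. It is the stalk protein of the large subunit, homologous to bacterial L7/L12, and also binds the mitochondrial RNA polymerase. Its level was 12.06 and 11.82 in activated CD4 T cells and 7.22 and 8.77 in naive CD4 T cells. The difference was 3.94 ± 0.41 (limma, adjusted p = 1.25e-05), the activated arrays lying above the naive ones. Mrpl17, a large-subunit protein with a bacterial homologue, read 10.15 and 9.94 against 6.25 and 7.01, a difference of 3.42 ± 0.35 (limma, adjusted p = 1.05e-05). Mrps28, a small-subunit protein, read 9.44 and 8.93 against 5.66 and 5.95, a difference of 3.38 ± 0.34 (limma, adjusted p = 9.47e-06). The sizes of these 3 rises were 15.4-fold, 10.7-fold and 10.4-fold.

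Mrps25, Mrpl54 and Mrps22 belong to the proteins without a bacterial homologue. Mrps25 read 7.67 and 7.51 after activation and 4.43 and 4.0 before it, both naive values lying near background, and rose by 3.38 ± 0.3. Mrpl54 read 7.92 and 7.84 against 4.0 and 5.09 and rose by 3.34 ± 0.39. Mrps22 read 10.6 and 10.3 against 7.09 and 7.45 and rose by 3.18 ± 0.45. Mrps7, which binds the ribosomal RNA of the small subunit, read 8.16 and 7.1 against 3.93 and 5.23 and rose by 3.05 ± 0.57. Activated and naive arrays did not overlap in any of these 4. Mrpl3, a protein near the catalytic centre of the large subunit, was less certain. It read 13.15 and 13.02 against 7.94 and 11.4, and the difference of 3.42 ± 1.15 (limma, adjusted p = 0.0323) fell to 1.69 (adjusted p = 0.341) without the first naive CD4 array. Its other probe set gave 3.72 ± 1.4 (limma, adjusted p = 0.058) and was not called.

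Activation of CD8 T cells gave the same direction. Of 74 members, 44 were called higher and 0 lower, against 14.4% and 15.7% of all genes. At an unadjusted p under 0.05 limma gave 53 and 0 members, against 20.6% and 22% of all genes. The median difference was 1.44, or 2.7-fold, against -0.02 over all genes, and 70 members lay above 0. With no filter, 33 of 76 members were called higher, against 6.91% of genes. The count fell to 28 without the first naive CD8 array.

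Mrps28 led in this lineage. It read 9.81 and 10.19 in activated CD8 T cells and 6.6 and 6.47 in naive ones, a difference of 3.46 ± 0.34 (limma, adjusted p = 9.74e-06). Mrpl12 read 12.38 and 12.66 against 9.02 and 9.67, a difference of 3.18 ± 0.41 (limma, adjusted p = 8.52e-05). Both were thus among the largest changes in each lineage. Mrps7 read 8.55 and 8.82 against 5.87 and 5.76 and rose by 2.87 ± 0.57. Mrps27, a pentatricopeptide repeat protein of the small subunit, read 10.41 and 9.93 against 7.49 and 7.46 and rose by 2.7 ± 0.45. Mrps11, on the platform of the small subunit, read 6.81 and 7.79 against 3.71 and 5.42 and rose by 2.74 ± 0.5. The other Mrps11 probe set gave -0.62 ± 0.79 and no call, so the Mrps11 value rests on 1 probe set. Mrps6 rose by 2.37 ± 0.73 (limma, adjusted p = 0.0238), and this call was lost without either naive or either activated CD8 array (adjusted p = 0.0649 to 0.113). Its other probe set read 7.85 and 7.89 against 5.85 and 4.48 and rose by 2.71 ± 0.38.

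The naive and activated arrays are separate in the 2 lineages. Across the 74 members, which are not independent replicates, the CD4 and CD8 differences had a Pearson correlation of 0.82. By calls, 42 members were higher in both lineages, 11 in CD4 alone, 2 (Mrpl42 and Mrpl50) in CD8 alone and 19 in neither. The fit took its spread from all cell types, the monocyte pair included. Mrpl19, among the 19, read 11.39 and 11.01 in activated against 9.41 and 9.19 in naive CD4 T cells, but 2.32 and 6.23 in monocytes. Without the monocyte group, an alternative chosen after seeing the data, 59 members were called in CD4 and 46 in CD8. A missing call thus does not show that a member was unchanged. A call in 1 lineage alone does not show a difference between lineages, and the interaction (the CD8 difference minus the CD4 difference) was called for 0 members, against 0.336% of all genes called lower and 0.326% higher. At an unadjusted p under 0.05 limma gave 5 of 74 members, a share near the 6.18% of all genes. All 5 had the smaller difference in CD8. They were Mrpl54, Mrps25, Mrpl17, Mrps16 and Mrpl38. Mrpl54 had the largest interaction of these, -1.92 ± 0.55 (limma, adjusted p = 0.242). The interaction lay below 0 in 59 of 74 members with a median of -0.32, and naive CD8 T cells already had higher member medians than naive CD4 T cells.

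**Figure D4:**
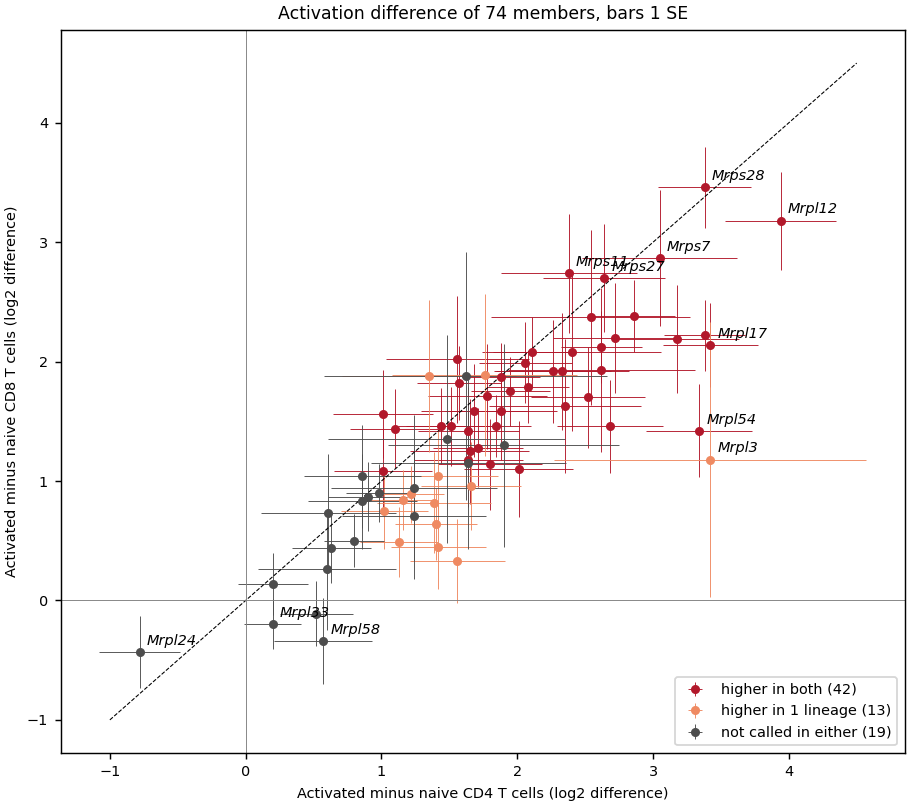
Log2 difference of activated from naive cells in CD4 T cells (horizontal) and CD8 T cells (vertical) for the 74 members, with bars of 1 SE and a dashed line of equal differences. Most points lie up and to the right of 0 and 59 of 74 lie below the dashed line. Mrpl24 lies below 0 on both axes.

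A small group of members did not move with the rest. Mrpl24, a large-subunit protein with a bacterial homologue, read 11.64 and 11.71 in activated CD4 T cells and 12.34 and 12.57 in naive ones, a difference of -0.78 ± 0.3 (limma, adjusted p = 0.0555). In CD8 T cells its difference was -0.43 ± 0.3. It was the only member whose 4 activated arrays all lay below the 4 naive arrays, or 1.35% of members against 23.4% of genes. Mrpl33, homologous to bacterial L33, differed by 0.2 ± 0.21 in CD4 and -0.2 ± 0.21 in CD8. Mrps9 differed by 0.2 ± 0.26 and 0.14 ± 0.26, and Mrpl52 by 0.52 ± 0.27 and -0.11 ± 0.27. Other Mrpl52 probe sets did rise, so its small differences rest on the probe set used. One read 9.25 and 8.27 in activated against 7.02 and 6.49 in naive CD4 T cells, and another 10.25 and 10.02 against 9.08 and 8.52. In CD8 T cells the same sets read 8.6 and 8.96 against 7.84 and 7.98, and 10.01 and 10.05 against 9.39 and 9.68. Mrpl10, the partner of Mrpl12 in the ribosomal stalk, differed by 0.6 ± 0.51 and 0.26 ± 0.51, beside the rise of Mrpl12. Mrpl58, a peptidyl-tRNA hydrolase of the large subunit that releases stalled chains, differed by 0.57 ± 0.36 and -0.34 ± 0.36.

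Some control probe sets and markers also moved with activation. The Gapdh control probe set at the 5 prime end read 7.42 to 8.81 in activated and 3.89 to 4.45 in naive T cell arrays. The 3 prime Gapdh set rose as well, reading 14.66 to 15.08 against 13.07 to 13.58. The 5 prime level alone thus does not separate RNA length and labelling from the level of Gapdh itself. The 5 prime Actb set read 3.94 to 5.55 against 3.57 to 3.89. The part of RNA length and labelling in the result was not tested. In granulocytes the 5 prime Gapdh set read 8.26 and 8.23. Division markers (3 of 4 on the array: Mki67, Top2a and Ccnb2) averaged 6.97 to 9.12 in activated and 7.83 to 10.09 in naive T cells, but did not move together. Top2a read 9.56 and 9.49 in activated against 9.16 and 9.22 in naive CD4 T cells, and 11.76 and 10.66 against 10.59 and 8.35 in CD8. Mki67 read 8.77 and 9.91 against 12.67 and 11.2 in CD4, and Ccnb2 lay under 5 in all activated arrays. The part of division in the result was not tested. With the naive arrays numbered 1, which carry the Y-linked signal, left out, the median difference was 1.56 in CD4 and 1.37 in CD8. With those numbered 2 left out it was 1.76 and 1.39. The direction of the members was thus the same against either set of naive arrays, with 72 and 69 members above 0 in the first case and 73 and 71 in the second.

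Genes of both subunits rose on activation. In CD4 T cells 30 of 45 tested Mrpl genes and 23 of 29 Mrps genes rose, with medians of 1.68 and 1.57. In CD8 T cells 26 and 18 rose, with medians of 1.42 and 1.46. Members with a bacterial homologue had medians of 1.65 in CD4 and 1.43 in CD8, and those without had 1.65 and 1.42. Calls numbered 31 of 43 and 17 of 25 in CD4, and 23 of 43 and 16 of 25 in CD8. No difference between these lists was tested.

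The Mrps18 genes are 3 copies of a single bacterial protein, of which Mrps18b and Mrps18c belong to the small subunit and Mrps18a, despite its name, to the large subunit. Mrps18a read 8.45 and 8.16 in activated CD4 T cells against 5.37 and 5.51 in naive ones. It rose by 2.86 ± 0.3 in CD4 and by 2.38 ± 0.3 in CD8. Mrps18b rose by 2.62 ± 0.69 and by 1.93 ± 0.69. Mrps18c rose by 1.02 ± 0.32 in CD4, and its 0.75 ± 0.32 in CD8 was not called (limma, adjusted p = 0.0891). Mrps30, likewise named for the small subunit and found in the large one, rose by 1.64 ± 0.4 and by 1.18 ± 0.4. Mrps36, now also known as a subunit of the 2-oxoglutarate dehydrogenase complex, rose by 1.51 ± 0.33 and by 1.46 ± 0.33.

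Proteins of the mitochondrial ribosome that carry other symbols behaved like the members, with 3 of 4 called higher in each lineage and medians of 1.6 and 1.53. Chchd1, a small-subunit protein, rose by 2.04 ± 0.22 in CD4 and by 1.97 ± 0.22 in CD8. Gadd45gip1, a large-subunit protein, rose by 2.28 ± 0.37 and by 1.4 ± 0.37. Other genes of mitochondrial translation are set here beside the 14.9% (CD4) and 14.4% (CD8) of all genes called higher, with no test of a difference. Of 8 mitochondrial translation factors, 3 rose and 2 fell in CD4, and 3 rose in CD8. The elongation factor Tufm rose by 2.4 ± 0.33 and by 1.99 ± 0.33, and the recycling factor Mrrf rose by 2.22 ± 0.46 and by 2.06 ± 0.46, while the formyltransferase Mtfmt fell by 1.22 in CD4 and the release factor Mtrf1l fell by 1.17 there. Of 19 assembly factors, 2 rose in CD4 (10.5%) and 5 in CD8 (26.3%), among them the GTPase Noa1 and the rRNA methyltransferase Mrm3 in both. Of 10 genes for expression of mitochondrial DNA, 3 rose and 1 fell in CD4, and 4 rose in CD8. Lrpprc and Slirp, which together stabilise mitochondrial messenger RNAs, rose by 2.38 ± 0.5 and 2.38 ± 0.27 in CD4 and by 2.97 ± 0.5 and 2.02 ± 0.27 in CD8. Mitochondrial aminoacyl-tRNA synthetases numbered 2 of 12 called higher in CD4 and 1 of 12 in CD8, shares of 16.7% and 8.33%. Cytosolic ribosomal protein genes numbered 2 of 42 in CD4 and 1 of 42 in CD8, with medians of 0.02 and -0.2. Their probe sets already read a median of 14.37 to 14.88 in naive T cells, near the top of the scale, where a rise is hard to measure.

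Promoter sequence was compared because most of these genes rose together. RefSeq (GRCm38.p6) held windows from 250 bases before to 50 bases after the start site for 67 of 76 members, 73 windows in all. Both strands were searched for 4 motifs, of which the ETS and YY1 motifs can share 3 letters. CCGGAAG, the core bound by ETS factors, lay in 25 member windows, or 34.2%, against 8.86% of all 32851 windows and 18.2% of the 10241 windows of genes tested here. AAGATGGCG, bound by YY1, lay in 8 windows, or 11%, against 1.4% and 3.16%. The NRF1 motif lay in 3, or 4.11%, against 0.971% and 2.24%. CACGTG, the E-box, lay in 7, or 9.59%, against 7.15% and 10.3%. A match is a run of letters and not a measured binding site.

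The 250 bases upstream of the start are shown for 3 members with large rises, Mrpl17, Mrps22 and Mrps18a, each holding the ETS motif at a different distance. They are followed by Mrpl12, which rose most in CD4 T cells and held none of the motifs. Mrpl52 comes last, which held the ETS motif and, by the probe set used, was not called in either lineage. Capitals mark CCGGAAG or its reverse complement. The windows are chr7:105811088-105811337, minus strand for Mrpl17, chr9:98601680-98601929, minus strand for Mrps22, chr17:46110754-46111003, plus strand for Mrps18a, chr11:120484387-120484636, plus strand for Mrpl12, and chr14:54426659-54426908, plus strand for Mrpl52, each read 5′ to 3′ on the gene's strand.
Mrpl17: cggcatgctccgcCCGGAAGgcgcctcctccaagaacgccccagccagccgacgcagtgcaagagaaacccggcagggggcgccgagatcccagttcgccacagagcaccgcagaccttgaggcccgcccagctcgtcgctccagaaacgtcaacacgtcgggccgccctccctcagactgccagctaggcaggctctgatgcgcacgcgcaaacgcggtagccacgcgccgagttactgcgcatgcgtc
Mrps22: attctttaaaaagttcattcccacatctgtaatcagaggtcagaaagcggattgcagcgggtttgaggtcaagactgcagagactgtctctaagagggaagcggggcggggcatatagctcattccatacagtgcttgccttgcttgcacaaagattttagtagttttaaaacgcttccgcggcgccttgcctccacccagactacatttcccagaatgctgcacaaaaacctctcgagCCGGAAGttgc
Mrps18a: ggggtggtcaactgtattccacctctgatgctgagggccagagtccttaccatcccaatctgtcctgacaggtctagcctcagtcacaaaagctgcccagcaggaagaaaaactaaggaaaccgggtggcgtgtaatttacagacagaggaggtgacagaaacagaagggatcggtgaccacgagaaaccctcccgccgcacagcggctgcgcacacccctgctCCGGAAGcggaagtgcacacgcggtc
Mrpl12: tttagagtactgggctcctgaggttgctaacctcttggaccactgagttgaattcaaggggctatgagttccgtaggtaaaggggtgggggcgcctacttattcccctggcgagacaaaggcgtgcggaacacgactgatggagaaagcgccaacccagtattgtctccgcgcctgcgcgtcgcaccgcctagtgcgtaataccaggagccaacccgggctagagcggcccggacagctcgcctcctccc
Mrpl52: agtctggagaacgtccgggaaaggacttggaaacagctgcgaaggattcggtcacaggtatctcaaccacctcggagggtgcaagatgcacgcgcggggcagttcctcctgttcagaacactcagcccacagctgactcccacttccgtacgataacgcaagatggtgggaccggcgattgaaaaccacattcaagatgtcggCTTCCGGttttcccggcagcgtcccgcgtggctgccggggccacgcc
Of tested members with a window, 18 of 25 with the ETS motif and 28 of 40 without it were called higher in CD4, with medians of 1.62 and 1.64. In CD8 these were 12 of 25 and 25 of 40, with medians of 1.1 and 1.53. Members with the YY1 motif were called higher in 7 of 8 cases in each lineage, against 39 and 30 of the 57 without it. With the E-box these were 5 of 5 in CD4 and 4 of 5 in CD8, against 41 and 33 of the 60 without it. With the NRF1 motif they were 1 of 3 and 0 of 3, against 45 and 37 of the 62 without it. The differences between these sets of members were not tested.

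Monocytes had the lowest levels of most members. Each cell type was set against the mean of the other 9, so these comparisons share arrays. In monocytes 58 members were called lower and 1 higher, against 34.4% and 18% of all genes, and the median difference was -2.15 against -0.49. Mrpl42, which has no bacterial homologue, read 3.81 and 6.9 in monocytes and a mean of 10.05 elsewhere, a difference of -4.69 ± 0.5 (limma, adjusted p = 2.64e-06). Mrpl49, also without one, read 3.79 and 4.61 against 8.84, a difference of -4.64 ± 0.32. Mrpl46 read 3.09 and 4.29 against 8.17, and Mrpl16 read 5.37 and 6.51 against 10.36. No monocyte array overlapped any other array in these 4. Mrpl3, Mrps10, Mrps7 and Mrps34 also fell, by 4.03, 3.83, 3.82 and 3.67. In low genes such as Mrps7, at 1.24 and 2.5, the reading had reached background.

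The monocyte arrays also stood apart as a pair. They had the lowest correlation of replicates (0.945), 24.6% of genes differed between them by over 2-fold, and 20 members did. Mrpl27 read 3.51 in the first and 8.01 in the second. The count of members called lower stayed between 56 and 59 when single arrays were left out. Granulocyte markers were present in these arrays (7.92 to 8.89), and their part in the result was not tested. Cytosolic ribosomal protein genes were called lower in 36 of 42 cases there, with a median of -1.8.

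Mrpl33 went the other way. It read 13.94 in both monocyte arrays and 13.87 and 13.58 in granulocytes, against 10.36 to 12.39 in the other 16 arrays. It was higher in monocytes by 2.22 ± 0.16 (limma, adjusted p = 5.48e-08) and in granulocytes by 1.98 ± 0.16 (limma, adjusted p = 1.91e-07). It was also the single member called lower in B cells, with a difference of -1.6 ± 0.16. With all Mrpl33 probe sets averaged the granulocyte difference was 0.89, under the 2-fold limit. Mrpl23, whose bacterial counterpart lies at the exit of the protein tunnel, rose in granulocytes. It read 10.71 and 10.65 there and at most 10.04 elsewhere, a difference of 2.6 ± 0.28 (limma, adjusted p = 3e-06). In monocytes its difference was 0.23 ± 0.28.

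**Figure D5:**
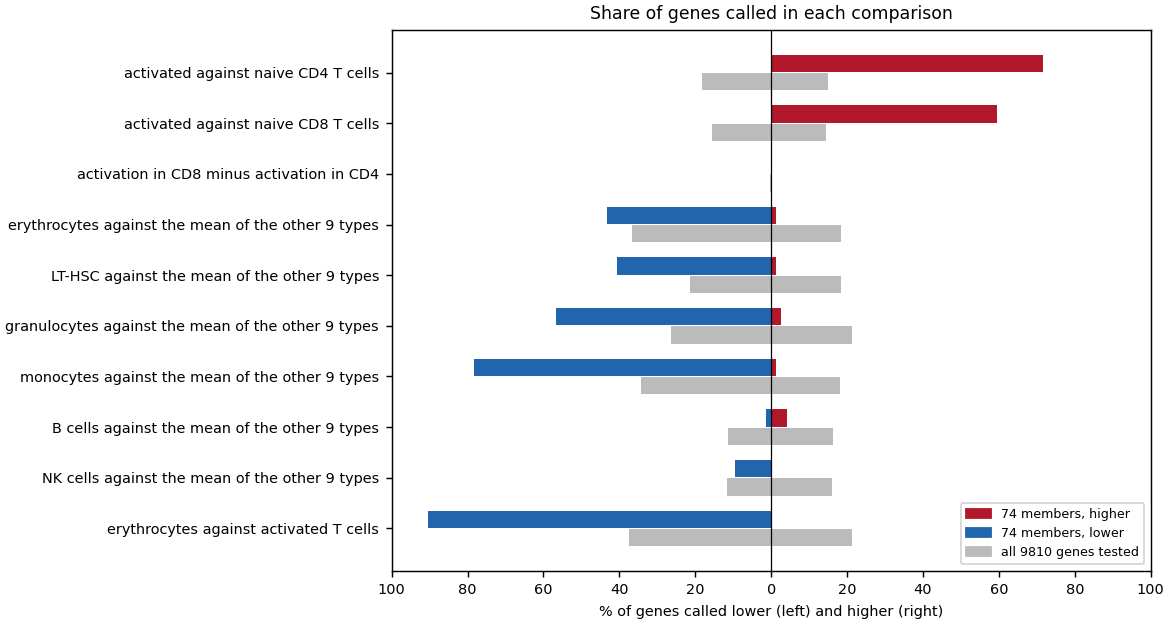
Percentage of the 74 members called lower (blue, left of 0) or higher (red, right of 0) in each comparison, with the same percentages for all 9810 genes tested in grey beneath. After T cell activation 53 and 44 of the 74 members were called higher, and in monocytes and granulocytes 58 and 42 were called lower, shares above the grey bars. In nucleated erythrocytes against the mean of other types the blue and grey bars are close.

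In granulocytes 42 members were called lower and 2 higher, against 26.4% and 21.2% of genes, with a median of -1.33 against -0.29. Mrps6 fell most by the probe set used, reading 2.85 and 2.86 against a mean of 8.84, a difference of -5.98 ± 0.55 (limma, adjusted p = 7.6e-07). Its other probe set read 3.64 and 3.81 in granulocytes and did not exceed 7.89 in any array, so it leaves room only for a smaller fall. Mrpl52, a large-subunit protein without a bacterial homologue, read 8.28 and 8.29 against 11.44, a difference of -3.16 ± 0.2. The Mrpl52 arrays agreed closely and lay below all others. Mrpl38, Mrps24 and Mrps5 fell by 2.47, 2.39 and 1.81. Of these, Mrpl38 read 2.81 and 2.51 and Mrps5 read 4.37 and 4.29 in granulocytes, under a level of 5. With all Mrps5 probe sets averaged its difference was -0.66, under the 2-fold limit. For Mrpl38 a probe set that does not end in _s_at or _x_at gave -0.16 (limma, adjusted p = 0.275), so its fall rests on 1 probe set. Small-subunit genes were called lower in 21 of 29 cases and large-subunit genes in 21 of 45. Mrpl44, Mrpl1 and Mrpl43 differed by 0.01 ± 0.45, 0.02 ± 0.31 and -0.06 ± 0.24.

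In nucleated erythrocytes 32 members were called lower and 1 higher, against 36.7% and 18.5% of genes. As a share this is near the background, and the median of -0.86 lay beside -0.54 for all genes. Mrps23, a small-subunit protein without a bacterial homologue, read 7.04 and 6.76 against a mean of 9.59, a difference of -2.69 ± 0.16 (limma, adjusted p = 7.77e-09). Mrps15 fell by 2.27, Mrpl24 by 1.78 and Mrpl33 by 1.7. In each of these 4 the erythrocyte arrays lay below all others. With all Mrpl33 probe sets averaged its difference was -0.65, under the 2-fold limit. Mrps36 rose, reading 10.02 and 9.41 against 8.04, a difference of 1.68 ± 0.25 (limma, adjusted p = 4.14e-05). The 2 erythrocyte arrays differed for the members, with only 5 of 74 higher in the second and 22 apart by over 2-fold, Mrps18b reading 6.5 and 3.64. Of all genes, 16.1% were apart by over 2-fold. The median of the second array minus the first was -0.71 for the members and -0.05 for all genes. Without the second array 5 members were called higher instead of 1. Granulocyte markers averaged 10.3 to 12.0 in these arrays, and their part was not tested.

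Set against activated T cells, nucleated erythrocytes were lower in 67 members and higher in 0, where 37.4% of genes were lower and 21.4% higher. At an unadjusted p under 0.05 limma gave 68 members lower and 0 higher, against 42.9% and 25.2% of genes. The median was -2.83 against -0.36. Division markers averaged 14.13 to 14.25 in the erythrocyte arrays, against 6.97 to 9.12 in activated T cells. Their part in the result was not tested. Mrps6 read 5.47 and 2.89 against 12.27 to 12.68, a difference of -8.3 ± 0.64 (limma, adjusted p = 7.9e-08). Its other probe set showed a smaller fall, reading 3.47 and 3.83 against 7.64 to 7.89. Mrps18b fell by 5.92, Mrps35 by 5.62, Mrpl19 by 5.6 and Mrpl12 by 5.4. Mrpl12 read 7.14 and 6.53 in erythrocytes and 11.82 to 12.66 in activated T cells, with no overlap. The members with the smallest differences were Mrps36 (-0.29 ± 0.29), Mrps18c (-0.32 ± 0.27), Mrpl51 (-0.39 ± 0.21) and Mrpl49 (-0.7 ± 0.37). Mrpl49 was called lower, at -1.33 (limma, adjusted p = 0.0125), without the first erythrocyte array. Among the copies of the bacterial S18 protein, Mrps18c read 9.92 and 9.24 in erythrocytes and 9.66 to 10.13 in activated T cells. Mrps18a read 4.95 and 4.51, below a level of 5, against 8.16 to 8.73, and fell by 3.7.

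In LT-HSC 30 members were called lower and 1 higher, against 21.5% and 18.4% of genes, with a median of -0.88 against -0.2. Mrpl40, which has no bacterial homologue, read 7.16 and 7.18 against a mean of 9.51, a difference of -2.34 ± 0.22 (limma, adjusted p = 1.18e-06). Mrpl17 read 6.12 and 5.48 against 7.66 and fell by 1.86. Both lay below every other array. With all Mrpl17 probe sets averaged its difference was -0.73, under the 2-fold limit. Mrps21 read 6.57 in both arrays and fell by 1.62, but its other probe set read 6.86 and 7.33 and was higher in LT-HSC by 1.37 ± 0.53 (limma, adjusted p = 0.0437). Mrpl55 fell by 1.04 at levels of 2.04 and 2.07, near background. Mrps6 was the member called higher, at 9.74 and 9.98 against 8.06, a difference of 1.8 ± 0.55 (limma, adjusted p = 0.0134). Its other probe set differed by -0.02 ± 0.28, and the call was lost without either LT-HSC array (adjusted p = 0.0742 and 0.113). In the same cells 38 of 42 cytosolic ribosomal protein genes lay above 0, with a median of 0.48 and 3 called higher.

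B and NK cells lay near the mean of the other types. In B cells 3 members were called higher and 1 lower, against 16.4% and 11.3% of genes. Mrps16 read 8.98 and 8.22 against 6.93, a difference of 1.66 ± 0.26 (limma, adjusted p = 2.15e-04), and Mrpl37 and Mrpl47 rose by 1.28 ± 0.4 and 1.02 ± 0.35. The 3 called higher became 1 to 7 when single arrays were left out: 1 without the first B cell array, 7 without the second monocyte array and 1 without both monocyte arrays. In NK cells 0 members were called higher and 7 lower, against 16.1% and 11.6% of genes. At an unadjusted p under 0.05 limma gave 4 higher and 23 lower, against 27.1% and 22.3% of genes. The median was -0.25 against 0.06 over all genes. Mrps28 read 3.85 and 3.4 in NK cells, near background, and fell by 2.34, and Mrpl23 read 6.62 and 6.09 and fell by 2.21. Mrpl54, Mrpl17, Mrpl20, Mrpl48 and Mrpl38 fell by 1.42, 1.26, 1.06, 1.04 and 1.0. The count called lower was 16 without both monocyte arrays.

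Other probe sets bore on these values. Of the members, 42 had more than 1 probe set, and 42 further sets of 27 genes passed the filter. For members called higher on activation in CD4 T cells, 23 of 24 such sets had the same sign and 17 were called the same way. In CD8 T cells these were 17 of 19 and 15. In monocytes 35 of 36 sets had the sign of the called difference and 28 its call. Sets of opposite sign to a called difference belonged to Mrpl1, Mrpl13, Mrpl48, Mrps6, Mrps9, Mrps11 and Mrps21. For 14 members the probe set used ends in _s_at or _x_at, which marks probes shared between transcripts. In RefSeq, 19 members overlap another protein-coding gene, Mrps6 among them with Slc5a3, Mrps7 with Gga3 and Mif4gd, and Mrps23 with Cuedc1, and the probe sets of such pairs may not be wholly separate.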

How the data were processed

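Log2 expression values for 45101 probe sets and 20 arrays were used as the authors deposited them. They were made with GCRMA per the submitters' processing notes (version not given in the sources used here), a method that subtracts background, scales arrays to each other and gives 1 value per probe set. Values near background therefore understate differences, and the number of arrays limits the precision. The platform annotation gave 1 symbol for 34945 probe sets. All 156 member probe sets matched an Entrez identifier in RefSeq, and 4 further sets that name several genes, an Mrp gene among them, were left out. All 20 arrays entered a single limma fit (limma 3.58.1, R 4.3.3) in which every cell type had its own mean (10 residual degrees of freedom), and p-values were 2-sided and adjusted over all 9810 genes tested. The fit was tested on simulated data.

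The members, lists and comparisons were chosen with earlier results of these data known. Members named were those with the 8 largest called differences in a comparison among those whose arrays did not overlap, up to 6 called against the majority, the 4 smallest differences, the 6 widest and 4 narrowest ranges, members whose probe sets disagreed, those not tested and a fixed set of special roles. A planned ranking of members by mean level was dropped, since levels of different probe sets cannot be compared, and protein sequences were not used here. No 2 arrays held identical values. Alternatives covered scaling, filters, probe set choice, variance settings, a replicate block and leaving out arrays.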

Additional observations from a re-analysis of the deposited data

How the results depend on the processing

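Counts here are of members called in the direction of most calls (higher for activation and B cells, lower otherwise). With single arrays left out they were 35 to 59 for activation in CD4 T cells, 28 to 46 for activation in CD8 T cells, 23 to 42 in nucleated erythrocytes, 24 to 32 in LT-HSC, 38 to 43 in granulocytes, 56 to 59 in monocytes, 1 to 7 in B cells, 6 to 9 in NK cells and 63 to 68 in erythrocytes against activated T cells. The interaction gave 0 throughout. Without the naive arrays numbered 1 the CD8 count was 25. In B cells the count was 1 after quantile normalization, 7 with array weights and 1 without the monocyte group. In NK cells it was 4 with each array centred on its median, 14 after quantile normalization, 3 with the mean of all probe sets and 16 without the monocyte group. The alternatives without the monocyte group, and with probe sets not ending in _s_at or _x_at, were chosen after seeing the data. The latter turned Mrps6 in LT-HSC to -0.02, and the mean of all probe sets gave Mrps21 in B cells 1.15 (limma, adjusted p = 0.00729) from -0.02. Other causes were not tested. Quantile normalization moved the median of all genes by 0.14 in monocytes and erythrocytes, -0.19 in B cells and -0.17 in NK cells, and 0 called members changed sign under either scaling. Across 91 pairs of a named member and a comparison, 2781 of 2812 alternative values kept their direction and their side of the threshold. Most named members were chosen by the size of their differences in these data. Leaving out an array outside the groups compared also leaves a difference unchanged. High agreement was thus partly set in advance and does not measure how firm the results are.

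Replicate numbers are shared by the labels. Over 45 pairs of groups the correlation of the deviations of same-numbered arrays had a median of 0, and 9 exceeded 0.1. The correlations ranged from -0.26 to 0.21, and that of naive and activated CD8 T cells was 0.16. Y-linked genes were high in the first naive array of both T cell lineages and low in the second. For these genes the naive arrays thus did deviate together by number. With a replicate block the counts were 53 in CD4 and 41 in CD8 activation. Levels under 5 give no reliable difference.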
